A study of Mus musculus with 19 samples.

Results

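Pancreatic islets of C57BL/6J mice (B6) kept in high glucose were compared with B6 islets kept in low glucose, 5 mice against 5, which are 10 of the 19 mice of the series. The members were taken by their sample titles alone. Each mouse is a male of 12 weeks whose islets were kept apart from those of the other mice, held for 48 h in medium with 11 mM glucose, and then cultured for 24 h in 5 mM glucose (low glucose) or in 20 mM glucose (high glucose). The other 9 mice are of the BLKS strain (C57BLKS/J), 5 in low and 4 in high glucose, and shared the arrays. Both are inbred strains with alleles of their own, which both B6 groups share. An islet holds insulin-secreting beta cells beside alpha, delta, PP, vessel and supporting cells, so each value is an average over them. Portions of 200 ng RNA from each mouse were labelled in Cy3 and, separately, in Cy5, and every array carried 2 mice in opposite dyes, as a pair of arrays with the dyes exchanged. The 20 arrays gave a log2 intensity for 41174 probes in each mouse, and 29326 probes that stood well above background in at least 4 mice were tested.

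The library labelled B6 low glucose 4 did not carry the B6 profile. A scale was set by 106 probes that differ between the strains in the high glucose mice. The mean of the B6 high glucose mice is 0 on it and that of the BLKS high glucose mice 1, so those mice lie near the ends by construction. Of the low glucose libraries, which did not set the scale, that labelled B6 low glucose 4 lay at 0.99. B6 low glucose 1, 2, 3 and 5 lay between -0.04 and 0.05, and 1 library labelled BLKS low glucose lay at -0.01. Results are therefore given with all 10 mice. They are also given without the library labelled B6 low glucose 4 for the probe counts, for most gene lists and for named genes whose call changed. In addition, every array but those of 1 pair carried mice of a single glucose concentration, so array and glucose cannot be told apart outside that pair, which held B6 low glucose 1 beside B6 high glucose 5 and is described separately.

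In beta cells glucose enters through a glucose transporter, is broken down and raises the ATP that closes potassium channels and releases insulin. Over hours glucose also changes transcription, among others through the carbohydrate response element binding protein ChREBP (gene Mlxipl), which binds paired E-boxes next to genes of sugar and lipid metabolism. Because proinsulin is folded in the endoplasmic reticulum (ER), the genes of ER import, folding, glycosylation and transport are a further set that follows secretory demand.

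The response to glucose was broad and mostly small. With all 10 mice, 1587 probes rose in high glucose, 5.41% of those tested, and 1209 fell, 4.12%, at an adjusted p below 0.05 in limma's moderated test with Benjamini-Hochberg adjustment. The median change of the 2796 probes that passed was 0.25 on the log2 scale, regardless of sign. A rise of more than 2-fold was reached by 17 of them and a fall of that size by 0. More than 1.5-fold changes were found for 121 probes that rose and 22 that fell. The groups of 5 did not overlap for 2184 probes, 7.45% of those tested, of which 1243 were higher in every high glucose mouse and 1839 also passed the test.

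When the library labelled B6 low glucose 4 was left out, 1665 probes rose, 5.68%, and 1330 fell, 4.54%. Of these, 2438 had also passed with all mice, each with the same sign. The split between rising and falling probes depended on how arrays were scaled to each other. Rising probes were 56.8% of the calls after scaling, 34.8% without scaling between arrays and 22.3% in the log2 table deposited by the authors, although 2796 and 2794 of the 2796 probes kept their sign under these. Changes below are therefore read as relative to the median probe, which moved by -0.01 with scaling, -0.02 without it and -0.05 in the deposited table.

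Counted once per gene, by its brightest probe, 6.59% of 16000 genes rose and 5.37% fell, with a median change of -0.01. These shares are the background for the gene lists. In the 9 mice without the library of BLKS position they were 6.84% and 5.91%.

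The largest rise was that of Txnip, which encodes the thioredoxin interacting protein, an arrestin that restrains glucose uptake and binds thioredoxin. Its log2 intensity was 10.45, 9.83, 10.36, 9.24 and 10.31 in low glucose mice 1 to 5 and 11.85, 12.21, 12.20, 12.73 and 11.87 in high glucose mice 1 to 5. The lowest of all was the library labelled B6 low glucose 4, and the groups did not overlap. The change was 2.13 ± 0.26 (SE, n = 5 and 5), or 4.38-fold, with an adjusted p of 3.72e-05 in limma. With that library left out the change was 1.93. A second Txnip probe rose by 0.99, so the probes disagreed on the size and not on the direction. The gene lies at chr3:96557957-96561857 (GRCm38.p6). An exact permutation test of the 10 mice gave p = 0.00794 for Txnip, two-sided, which is the smallest value that 252 divisions of 5 and 5 allow. Groups that do not overlap always give this value. The rule for naming the genes of largest rise required such groups, so this test adds no evidence here.

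Arrdc4, a relative of Txnip, rose as well. It stood at 6.82, 6.69, 6.72, 6.59 and 6.78 in low and at 7.17, 7.44, 7.69, 7.37 and 7.45 in high glucose mice, without overlap. The change was 0.71 ± 0.07 with an adjusted p of 9.68e-06 in limma. Both arrestin genes are shown with the 300 bases around their start, since Txnip holds a close match to the paired E-box bound by ChREBP and Arrdc4 a single E-box. The windows are RefSeq sequence on GRCm38.p6, 5′ to 3′ on the gene's strand, from 250 bases before the start to 50 after it, with the matching letters in capitals.
Txnip, chr3:96557707-96558006, plus strand: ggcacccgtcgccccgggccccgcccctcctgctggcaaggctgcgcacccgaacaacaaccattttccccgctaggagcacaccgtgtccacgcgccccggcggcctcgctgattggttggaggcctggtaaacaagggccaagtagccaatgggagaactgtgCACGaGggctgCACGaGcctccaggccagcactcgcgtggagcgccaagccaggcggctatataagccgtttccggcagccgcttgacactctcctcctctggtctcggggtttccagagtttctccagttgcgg
Arrdc4, chr7:68749189-68749488, minus strand: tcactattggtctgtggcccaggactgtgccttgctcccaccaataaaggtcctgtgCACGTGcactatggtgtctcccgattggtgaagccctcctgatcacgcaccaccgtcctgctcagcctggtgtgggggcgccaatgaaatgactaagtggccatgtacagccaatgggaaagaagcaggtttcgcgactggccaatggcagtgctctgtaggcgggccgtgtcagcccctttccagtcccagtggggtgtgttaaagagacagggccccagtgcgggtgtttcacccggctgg
The E-box CACGTG, which is its own reverse complement, was present in 10.5% of the windows of 12737 tested genes with a window and in 5 of 18 genes of the ChREBP list. Of the 6 list genes with a window that rose, 1 held it, Arrdc4, and the genes that fell, Khk and Mlxipl, hold it too. The exact pair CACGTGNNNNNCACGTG was in 0 windows. A looser form, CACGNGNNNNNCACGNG on either strand, was added after the exact form had been counted and was found in 11 genes, 0.0864%, among them Txnip, at positions -85 to -69 from the start. These are matches of letters and no binding was measured.

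Among 23 measured genes of the ChREBP list, 7 rose and 2 fell, with a median change of 0.16. These counts and the median were the same without the library labelled B6 low glucose 4. Rgs16, a regulator of G protein signalling, read 9.64, 9.37, 9.67, 9.04 and 9.29 in low and 10.25, 10.32, 10.30, 10.54 and 10.02 in high glucose mice. It rose by 0.88 ± 0.15 with no overlap of the groups (adjusted p = 0.000719, limma). Smaller rises were those of the lipogenic genes Fasn (0.19) and Elovl6 (0.19). Tkfc, which phosphorylates the products of fructose breakdown, rose by 0.16. The genes that fell were 2. Khk, which phosphorylates fructose, fell by 0.54, and Mlxipl, which encodes ChREBP, fell by 0.67 on its brightest probe.

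Mlxipl was spread widely in low glucose. On the probe with the larger change it read 9.61, 9.94, 10.36, 9.61 and 10.30 in low and 9.23, 9.25, 9.15, 9.49 and 9.15 in high glucose mice. The groups did not overlap, although low glucose mice 1 and 4 came near to the high glucose mice. The change was -0.71 ± 0.18 with an adjusted p of 0.0165 in limma. The pyruvate kinase gene Pklr, another known ChREBP target, changed by 0.14 and did not pass (adjusted p = 0.0916, limma). G6pc2, the glucose-6-phosphatase subunit of beta cells, and Acly, which makes cytosolic acetyl-CoA, changed by 0.05 and -0.01 and did not pass either.

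**Figure D1:**
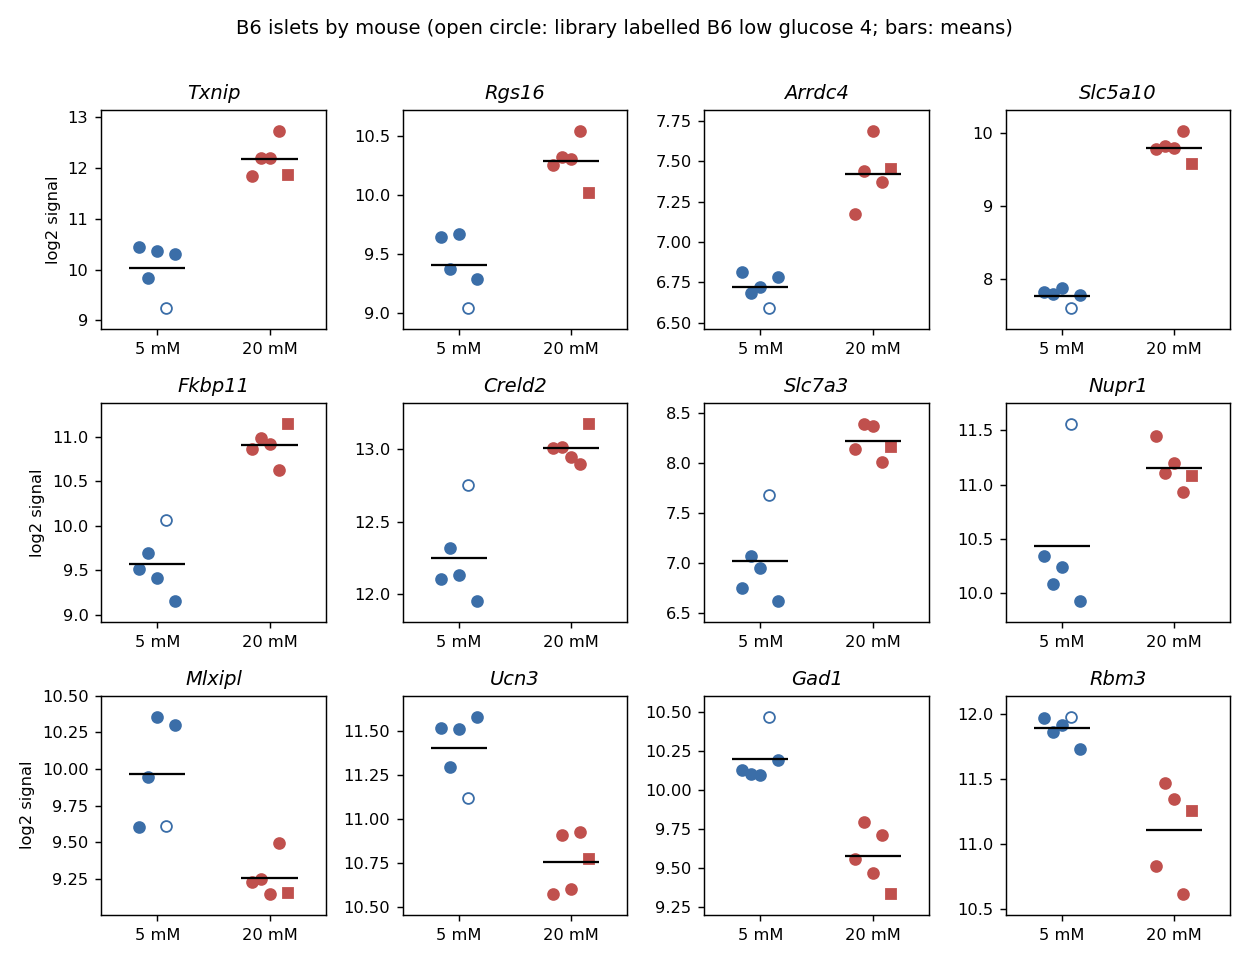
Log2 intensity (vertical axis) of 12 genes in each of the 5 low (5 mM) and 5 high (20 mM) glucose B6 mice, with bars at the group means, the library labelled B6 low glucose 4 as an open circle and B6 high glucose 5 as a square. High glucose mice lie between 11.85 and 12.73 for Txnip, all above the low glucose mice, while for Nupr1 the open circle at 11.56 lies above every other mouse.

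The genes of protein entry into the ER and of folding rose together in high glucose. In the list of ER chaperones and folding enzymes 24 of 30 measured genes rose and 0 fell, with a median change of 0.42. Fkbp11, a peptidyl-prolyl isomerase of secretory tissues, had the largest change of the list. On the probe with the larger change it read 9.52, 9.70, 9.42, 10.07 and 9.16 in low and 10.86, 10.99, 10.92, 10.63 and 11.14 in high glucose mice. The library labelled B6 low glucose 4 was the highest of its group and high glucose mouse 4 the lowest of the other, and the groups did not overlap. The change was 1.34 ± 0.14, or 2.53-fold, with an adjusted p of 1.03e-05 in limma, and a second probe rose by 1.29.

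Creld2, a secreted ER folding factor, read 12.10, 12.31, 12.13, 12.75 and 11.95 in low and 13.01, 13.02, 12.95, 12.90 and 13.18 in high glucose mice. Low glucose mouse 4 again stood nearest to the high glucose mice. The change was 0.76 ± 0.13 (adjusted p = 0.000755, limma), and 0.89 without it. Sdf2l1, a partner of the main ER chaperone, rose by 0.77, and Ero1a, the oxidase that feeds disulfide formation, by 0.78. A second Ero1a probe showed 0.33 and did not pass. The main chaperone itself, Hspa5 (BiP), rose by 0.39 ± 0.09 from a group mean of 14.15 to 14.54 (adjusted p = 0.00922, limma). Hsp90b1 (GRP94) rose by 0.52, the disulfide isomerase Pdia6 by 0.60 and the cochaperone Dnajc3 by 0.63. Those that did not pass were Calr (0.35), Pdia5 (0.19), Fkbp14 (0.08), Canx (-0.00), Tmx1 (-0.02) and Ero1b (-0.18). Members of a list past the 4 of largest change, here and below, are named after their values were seen.

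Several of these genes hold the ER stress element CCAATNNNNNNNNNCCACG, searched on both strands, within the window at their start. It was in 8 of the 26 chaperone genes with a window and in 21 of all 12737 genes, 0.165%. Among the 20 chaperone genes with a window that rose it was in 5, and in 0 of 18 genes of the translocation list below. The windows of Hspa5, Creld2 and Hsp90b1 are shown because they carry the element and the genes rose. The capitals mark its outer letters, which in Creld2 and in the second copy of Hsp90b1 read on the opposite strand.
Hspa5, chr2:34771840-34772139, plus strand: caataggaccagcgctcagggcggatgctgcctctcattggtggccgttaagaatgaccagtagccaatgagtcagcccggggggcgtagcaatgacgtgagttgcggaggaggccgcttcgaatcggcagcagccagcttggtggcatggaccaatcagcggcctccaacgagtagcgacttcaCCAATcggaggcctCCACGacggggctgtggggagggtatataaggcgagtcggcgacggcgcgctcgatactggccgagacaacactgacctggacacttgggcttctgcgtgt
Creld2, chr15:88819396-88819695, plus strand: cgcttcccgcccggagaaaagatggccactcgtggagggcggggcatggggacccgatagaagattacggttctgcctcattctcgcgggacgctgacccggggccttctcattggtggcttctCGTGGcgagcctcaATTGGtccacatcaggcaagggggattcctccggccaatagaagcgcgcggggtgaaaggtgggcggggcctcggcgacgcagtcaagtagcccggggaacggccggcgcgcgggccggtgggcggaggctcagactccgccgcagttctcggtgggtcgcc
Hsp90b1, chr10:86705395-86705694, minus strand: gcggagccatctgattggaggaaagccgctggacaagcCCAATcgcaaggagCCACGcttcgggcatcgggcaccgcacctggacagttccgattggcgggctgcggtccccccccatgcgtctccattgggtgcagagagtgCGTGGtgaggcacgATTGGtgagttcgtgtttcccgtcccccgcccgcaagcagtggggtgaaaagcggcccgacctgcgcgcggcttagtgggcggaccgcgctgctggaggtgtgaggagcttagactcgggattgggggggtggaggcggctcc
Calr, Canx and Ero1b also hold the element and are among the genes that did not pass the test.

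Of 25 genes for translocation into the ER, 19 rose and 0 fell, with a median change of 0.34. Spcs1, a subunit of the signal peptidase, rose by 0.54 ± 0.07, from between 12.30 and 12.65 in low to between 12.93 and 13.20 in high glucose mice. Srprb, the membrane anchor of the signal recognition particle receptor, rose by 0.53, Sec61b of the translocation channel by 0.48, and Ssr2 of the translocon-associated complex by 0.47. The groups did not overlap for any of these 4. Sec62, which serves the entry of short proteins after their synthesis, changed by -0.07 and did not pass.

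N-glycosylation showed 15 of 26 genes higher and 0 lower, with a median of 0.26. Mogs, the glucosidase that trims the first glucose of a new glycan, read 11.26, 11.37, 11.26, 11.57 and 11.16 in low and 12.00, 12.24, 12.08, 11.94 and 12.28 in high glucose mice, without overlap. It rose by 0.78 ± 0.08 (adjusted p = 6.17e-06, limma). Rpn1, Krtcap2 and Dad1, all parts of the oligosaccharyltransferase, rose by 0.59, 0.55 and 0.49.

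Genes for transport between ER and Golgi followed, with 19 of 39 higher, 0 lower and a median of 0.20. Tmed3, a cargo receptor, rose by 0.59, the KDEL receptors Kdelr3 and Kdelr2, which return ER proteins, by 0.58 and 0.46, and the SNARE gene Bet1 by 0.47. For Kdelr3 the groups overlapped. In the list of stress sensors and of ER-associated degradation 8 of 22 rose and 0 fell, with a median of 0.15. Without the library labelled B6 low glucose 4, 10 rose and 1 fell, with a median of 0.20. Derl3 and Derl1, which draw misfolded proteins out of the ER, rose by 0.75 and 0.45, and the ubiquitin-conjugating Ube2j1 by 0.50. Derl3 read 7.50, 7.76, 7.45, 8.43 and 7.17 in low and 8.24, 8.58, 8.49, 8.22 and 8.53 in high glucose mice, so that the library labelled B6 low glucose 4 alone overlapped the high group.

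The lists were also counted in 9 alternatives. Some were without scaling, with quantile normalization, with background correction, in the deposited table and in each dye alone. The others were with the replicate block in the B6 mice alone, and without 1 or both libraries of the other strain's profile. Across the ER lists the medians stayed positive in all 9. The count of genes that fell was 0 in each for chaperones, translocation, glycosylation and transport. The counts that rose went down to 14 of 30 chaperones, 8 of 25 translocation genes, 6 of 26 glycosylation genes and 7 of 39 transport genes. With only the library labelled B6 low glucose 4 left out, they were 24, 19, 16 and 22.

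**Figure D2:**
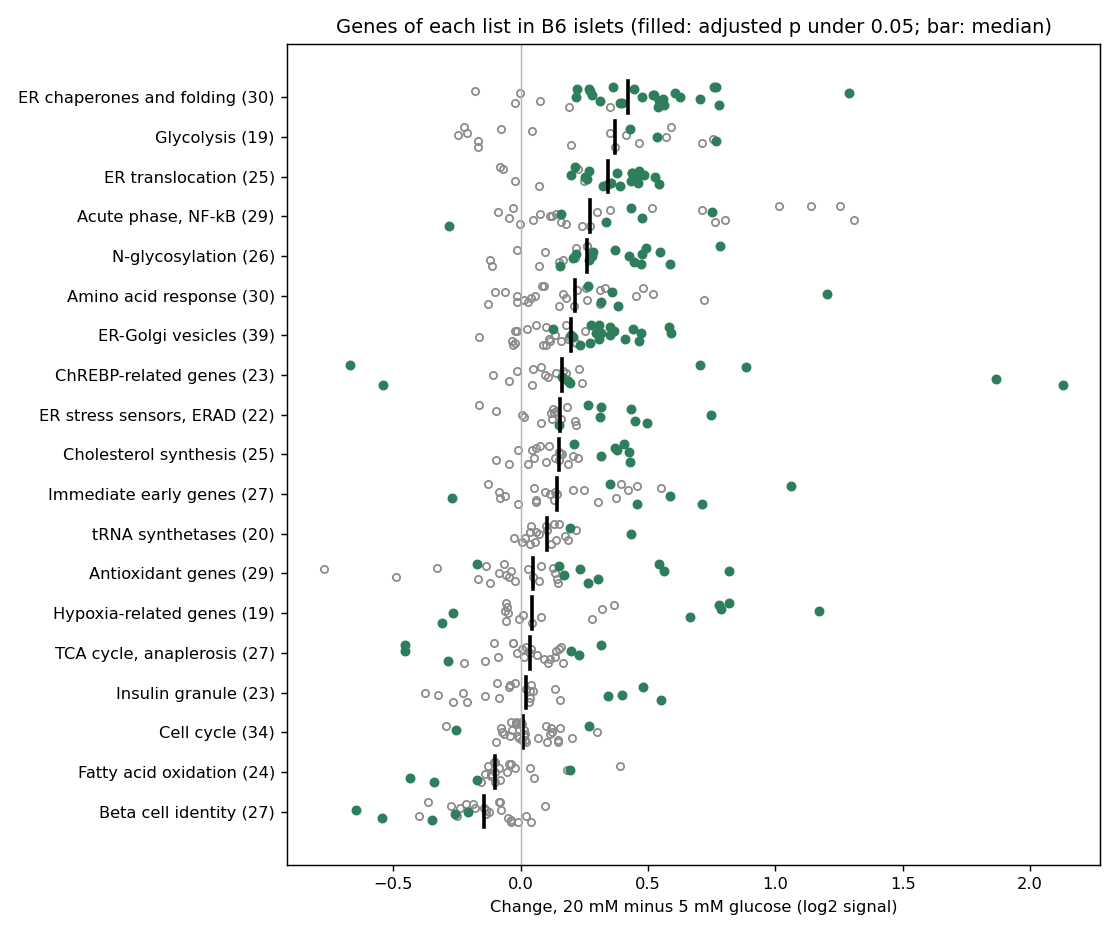
Change in log2 intensity from low to high glucose (horizontal axis) for the genes of 19 lists (rows, with the number of genes measured), 1 circle per gene by its brightest probe, filled where the adjusted p was under 0.05, with a bar at each median, saturated granule genes included. Chaperones have the highest median (0.42) and beta cell identity genes the lowest (-0.14), against -0.01 for all genes.

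The amino acid response controlled by the factor ATF4 depended on 1 library. With all mice 5 of 30 genes rose, with a median of 0.21, and without the library labelled B6 low glucose 4 14 of 30 rose, with a median of 0.30, and 0 fell in either. Slc7a3, a transporter of basic amino acids, read 6.74, 7.07, 6.95, 7.68 and 6.62 in low and 8.14, 8.39, 8.37, 8.01 and 8.16 in high glucose mice. The groups did not overlap. It rose by 1.20 ± 0.18 (adjusted p = 0.000347, limma) and by 1.37 without that library. Aldh18a1, for proline synthesis, rose by 0.38, Asns, the asparagine synthetase, by 0.36, and Ppp1r15a, which reverses the phosphorylation of the initiation factor eIF2, by 0.32.

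Phgdh, the entry enzyme of serine synthesis, read 9.35, 9.53, 9.43, 10.94 and 9.28 in low and 10.12, 10.10, 10.17, 10.21 and 9.93 in high glucose mice. The library labelled B6 low glucose 4 was above all 9 others, and those 9 did not overlap between groups. The change was 0.40 with all mice and did not pass (adjusted p = 0.448, limma), and 0.71 without that library (adjusted p = 0.0248, limma). Nupr1, a stress-induced chromatin protein, went from 0.72 to 1.0 in the same way, with adjusted p of 0.0795 and 0.00134 in limma. Among the aminoacyl-tRNA synthetases, which load amino acids onto tRNA, 2 of 20 rose with all mice, Hars (0.43) and Kars (0.19), and 7 of 20 without the library. Ddit3 (CHOP), the ATF4 partner linked with cell death under ER stress, changed by -0.02 and Trib3 by 0.26, and neither passed.

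Glycolysis genes had a median change of 0.37 over 19 genes, of which 3 rose and 0 fell in the fit of all 4 groups of mice, which share 1 estimate of the spread per probe. Eno1, the enolase, read 7.95, 7.80, 7.99, 7.84 and 7.68 in low and 8.66, 8.45, 8.76, 8.42 and 8.81 in high glucose mice. The groups did not overlap, yet the adjusted p was 0.0435 in limma, and 0.0636 without the library labelled B6 low glucose 4. Gpi1, glucose-6-phosphate isomerase, rose by 0.54 on its brightest probe and showed 0.03 on another. Pkm, the muscle-type pyruvate kinase, rose by 0.43. The number of glycolysis genes that rose ran from 0 in the deposited table to 9 with the replicate number as a block. The fit with the block also left out the BLKS mice, so the higher count cannot be put to the block alone. The number was 2 without the library labelled B6 low glucose 4.

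Enzymes of the citric acid cycle and its filling reactions were split, 3 of 27 higher and 3 lower. The split was 3 higher and 4 lower without the library labelled B6 low glucose 4. Pcx, the pyruvate carboxylase that supplies oxaloacetate, read 11.63, 11.64, 11.67, 11.81 and 11.75 in low and 11.19, 11.26, 11.20, 11.35 and 11.26 in high glucose mice. All 5 high glucose mice lay below all low glucose mice, and Pcx fell by 0.45 ± 0.04 (adjusted p = 5.35e-06, limma). Idh2, the mitochondrial NADP-dependent isocitrate dehydrogenase, fell by 0.45 and Sdha of succinate dehydrogenase by 0.28. On 2 other probes Sdha showed -0.09 and -0.08, which did not pass. Pdhb, a subunit of pyruvate dehydrogenase, rose by 0.32. In the pentose phosphate pathway Pgd (0.20) and Rpe (0.15) rose of 8 genes, and 3 rose without the library labelled B6 low glucose 4. A second Rpe probe showed -0.03 and did not pass.

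Fatty acid oxidation had a median of -0.10, with 3 of 24 genes lower and 1 higher. Hadh, the short-chain hydroxyacyl-CoA dehydrogenase whose loss raises insulin release, read 12.66, 12.17, 12.76, 12.26 and 12.54 in low and 11.92, 12.03, 11.99, 12.43 and 11.86 in high glucose mice. High glucose mouse 4 overlapped the low group, and the change was -0.43 ± 0.13 (adjusted p = 0.0357, limma). Acaa2 fell by 0.34, while Acadvl rose by 0.19.

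In cholesterol synthesis 7 of 25 genes rose and 0 fell, with a median of 0.15. Without the library labelled B6 low glucose 4, 7 rose and 1 fell. Hmgcs1, the cytosolic HMG-CoA synthase, read 10.20, 10.11, 9.89, 9.79 and 10.12 in low and 10.29, 10.48, 10.67, 10.25 and 10.58 in high glucose mice. The groups were close but did not overlap, and the change was 0.43 ± 0.10 (adjusted p = 0.00924, limma). The late enzymes Ebp, Dhcr7 and Cyp51 rose by 0.43, 0.41 and 0.38. A second Dhcr7 probe showed 0.13 and did not pass. The sterol element TCACNCCAC, the site known for SREBP, was in 1.44% of all windows on either strand and in 1 of 17 windows of this list. That window is Hmgcs1's, shown with the element in capitals.
Hmgcs1, chr13:119690101-119690400, plus strand: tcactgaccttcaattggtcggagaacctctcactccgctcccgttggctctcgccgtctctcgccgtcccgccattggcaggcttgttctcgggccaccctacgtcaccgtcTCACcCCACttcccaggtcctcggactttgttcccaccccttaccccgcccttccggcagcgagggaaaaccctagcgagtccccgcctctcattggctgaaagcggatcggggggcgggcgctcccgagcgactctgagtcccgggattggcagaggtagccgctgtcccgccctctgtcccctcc

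Insulin itself could not be read. The probes of Ins1, Ins2, Iapp, Chga, Pcsk2, Gcg, Pyy and Sst were saturated in all 10 mice, so each has only a lower bound in both groups and no change is given. Of 23 granule genes 6 were saturated in some or all mice, and of the other 17, 4 rose and 0 fell, with a median of -0.04. Nucb2, a calcium-binding protein from which nesfatin is cut, rose by 0.55, Pam, which amidates peptides, by 0.48, the proinsulin convertase Pcsk1 by 0.40 and the granule membrane protein Ptprn by 0.34. On 2 other probes Pam showed 0.04 and 0.49. Slc30a8, the zinc transporter of the granule, changed by -0.32 and did not pass (adjusted p = 0.148, limma).

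Genes of beta cell identity moved the other way. Of 27 measured, 5 fell and 0 rose, with a median of -0.14, and 8 fell without the library labelled B6 low glucose 4. Ucn3, a peptide of mature beta cells, read 11.52, 11.29, 11.51, 11.12 and 11.58 in low and 10.58, 10.91, 10.61, 10.92 and 10.77 in high glucose mice. The groups did not overlap, and Ucn3 fell by 0.65 ± 0.11 (adjusted p = 0.000658, limma).

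Gipr, the receptor of the incretin GIP, read 9.62, 9.86, 10.29, 9.82 and 10.07 in low and 9.33, 9.42, 9.31, 9.36 and 9.53 in high glucose mice. It fell by 0.54 ± 0.13 without overlap of the groups (adjusted p = 0.0124, limma), whereas 2 other probes showed -0.31 and -0.10. The islet transcription factors Nkx2-2, Pax6 and Neurod1 fell by 0.35, 0.26 and 0.21. On 2 other probes Pax6 showed -0.17 and -0.02, which did not pass. Pdx1, the regulator of the insulin gene, changed by -0.04, Mafa by -0.14 and Nkx6-1 by -0.27, and none of these passed. Slc2a2 (GLUT2), the glucose transporter, changed by -0.40 and did not pass (adjusted p = 0.0529, limma), although its groups did not overlap.

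The hormone genes that define islets, with Ins1, Ins2, Gcg and Sst at saturation in every mouse, were present throughout. In bulk RNA, fewer cells of a type and less RNA per cell cannot be told apart. The summed linear intensity of the beta cell markers that were not saturated ran from 12526 to 14893 in low and from 9226 to 11765 in high glucose mice, and 1 of the 5 fell. Of 7 alpha cell markers that were not saturated 2 rose, the transthyretin gene Ttr by 0.79 and the vitamin D binding protein gene Gc by 0.64. The median change of these 7 was -0.09, so most of them did not share the rise. Their sum, which holds Ttr and Gc, lay between 2532 and 3418 in low and between 3374 and 3924 in high. Of 6 delta and PP cell markers 3 were saturated and 0 of the other 3 passed. Stromal markers were higher in high glucose for 15 of 15, of which 3 rose (Dcn by 0.39, Lum by 0.35 and Pdgfra by 0.17), with a median of 0.35 and sums of 5188 to 10011 in low and 7191 to 12888 in high. Pdgfra was well above background in 1 of 5 low and 4 of 5 high glucose mice and lost its call when the library of BLKS position was left out (adjusted p = 0.0653, limma), which left 2 stromal markers higher. A second Pdgfra probe showed -0.00 and did not pass.

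Acinar markers had a median of -0.16 and showed 1 of 13 higher (Bhlha15, a secretory cell factor, 0.36) and 1 lower (Ctrb1, a chymotrypsinogen, -0.36). A second Bhlha15 probe showed -0.12 and did not pass. Without the library of BLKS position the acinar counts were the same and the median was -0.05. The duct markers had 1 of 8 higher, Krt18 by 0.25, or 2 when the library of BLKS position was left out. Their sum ran from 22334 to 38621 in low glucose mice, highest in that library, and from 30566 to 33971 in high glucose mice. Spp1 is among these markers, at 14.03 in that library and from 11.06 to 11.60 in the other low glucose mice. Endothelial markers had 1 of 11 lower (Kdr, -0.29), with sums of 2628 to 3179 in low and 2452 to 2793 in high glucose mice. Leukocyte markers had 0 of 16 called, with sums of 5957 to 7524 in low and 5079 to 6520 in high. The part of cell composition in the changes above was not tested.

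Immediate early genes and other targets of calcium and cAMP signals had 5 of 27 genes higher and 1 lower, with a median of 0.14, and 9 higher with a median of 0.23 without the library labelled B6 low glucose 4. Klf10, a zinc finger repressor induced by TGF-beta, read 8.49, 8.15, 8.29, 8.14 and 8.43 in low and 9.40, 9.35, 9.25, 9.54 and 9.28 in high glucose mice. Without overlap, it rose by 1.06 ± 0.08 (adjusted p = 6.64e-07, limma). The orphan nuclear receptor genes Nr4a2 and Nr4a1 rose by 0.71 and 0.59, Fosl2 by 0.46 and Jun by 0.35, and Btg2 fell by 0.27. A second Fosl2 probe showed -0.03 and did not pass. Nr4a1 was at 9.84 in the library labelled B6 low glucose 4 and between 8.75 and 8.97 in the other low glucose mice.

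Acute phase and NF-kappaB genes had a median of 0.27, with 5 of 29 higher and 1 lower. Without the library labelled B6 low glucose 4, 7 were higher and 1 lower. The complement gene C3 read 8.93, 8.99, 8.67, 9.75 and 8.74 in low and 9.71, 9.69, 9.81, 9.46 and 10.15 in high glucose mice. It rose by 0.75 ± 0.17 (adjusted p = 0.00785, limma) and by 0.93 without the library labelled B6 low glucose 4, which alone overlapped the high group. The cytokine gene Il1b rose by 0.48, and Nfkbia and Tnfaip3, which restrain NF-kappaB, by 0.43 and 0.33 (adjusted p = 0.0474 and 0.0477, limma). For the last pair high glucose mouse 5 was the highest, at 10.25 and 7.61, and neither passed without the library labelled B6 low glucose 4 (adjusted p = 0.0973 and 0.0588, limma).

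Lcn2, an iron-scavenging acute phase protein, read 6.95, 6.79, 6.28, 8.71 and 6.26 in low and 8.24, 7.57, 8.79, 7.42 and 9.5 in high glucose mice. The library labelled B6 low glucose 4 lay within the high group. The change was 1.31 ± 0.50 (adjusted p = 0.121, limma) with all mice and 1.74 (adjusted p = 0.0186, limma) without that library. Spp1, the secreted phosphoprotein osteopontin, read 11.60, 11.10, 11.48, 14.03 and 11.06 in low and 12.96, 12.94, 13.13, 12.81 and 13.14 in high glucose mice. That library was here the highest of all 10, and the change was 1.14 ± 0.52 (adjusted p = 0.203, limma) with it and 1.68 (adjusted p = 0.0112, limma) without it. S100a9, a calcium-binding protein of myeloid cells, was well above background in 2 of 5 low and 5 of 5 high glucose mice and changed by 0.71, which did not pass with or without the library. Interferon-induced genes had 0 of 22 higher and 1 lower, the proteasome subunit Psmb9 (-0.40).

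Genes known as targets of the hypoxia-inducible factor had 5 of 19 higher and 2 lower, with a median of 0.04. Without the library labelled B6 low glucose 4, 5 were higher and 1 lower. Pfkfb3, which makes the activator of phosphofructokinase, read 8.12, 7.97, 8.09, 7.65 and 8.01 in low and 9.23, 8.89, 9.01, 9.04 and 9.53 in high glucose mice. It rose by 1.17 ± 0.25 (adjusted p = 0.00571, limma) without overlap, but 2 further probes of the gene showed -0.07 and 0.04. Pdk1, which inhibits pyruvate dehydrogenase, rose by 0.82, and the collagen prolyl hydroxylases P4ha1 and P4ha2 rose by 0.79 and 0.66. Vegfa fell by 0.27 and Ndrg1 by 0.31.

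Antioxidant genes had 8 of 29 higher and 1 lower, with a median of 0.05. There were 8 higher and 0 lower without the library labelled B6 low glucose 4. Gpx2, a glutathione peroxidase, read 10.81, 10.84, 10.69, 10.40 and 10.53 in low and 11.45, 11.40, 11.46, 11.42 and 11.63 in high glucose mice. It rose by 0.82 ± 0.10 without overlap (adjusted p = 6.79e-05, limma). Txn1, the thioredoxin that the Txnip protein binds, rose by 0.56, the sulfiredoxin gene Srxn1 by 0.55 and the mitochondrial thioredoxin gene Txn2 by 0.31. Heat shock genes had 1 of 20 higher, Hsp90aa1 by 0.30, and 2 without the library labelled B6 low glucose 4. Cell cycle genes were nearly still, with 1 of 34 higher (Rrm2, 0.27), 1 lower (Cdk4, -0.26) and a median of 0.01.

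In genes of synapses and of the transmitter GABA 4 of 23 rose and 5 fell, with a median of -0.02. Gad1, which makes GABA from glutamate, read 10.12, 10.10, 10.10, 10.47 and 10.19 in low and 9.56, 9.80, 9.46, 9.71 and 9.33 in high glucose mice. It fell by 0.62 ± 0.14 (adjusted p = 0.00751, limma), and a second probe by 0.60. Abat, which breaks GABA down, fell by 0.41 on its brightest probe, with -0.15 on another that did not pass. Aldh5a1, the next enzyme, rose by 0.51 on its brightest probe. Its 2 other probes showed -0.14 and -0.03, and 1 of these passed as a fall, so its probes disagreed on the direction. Ttyh1, a chloride channel, rose by 1.26, with further probes at -0.01 and 0.88.

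Further genes of large change lay outside these lists. Slc5a10, a sodium-coupled sugar transporter on chromosome 11, read 7.83, 7.79, 7.87, 7.61 and 7.79 in low and 9.78, 9.83, 9.80, 10.03 and 9.57 in high glucose mice. The groups lay farther apart than either was wide, and the change of 2.03 ± 0.10, or 4.07-fold, had an adjusted p of 3.23e-09 in limma. Soat1, which esterifies cholesterol, rose by 1.30 on 1 probe and showed -0.03 and -0.02 on 2 others. The casein gene Csn3 rose by 1.22 and 0.45 on its probes, and Slc17a9, which loads ATP into vesicles, by 0.98 on 1 probe against 0.04 on another.

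Further rises were those of Dapl1 (1.14), the adaptor gene Sh2d5 (1.08), Cthrc1 (1.02), a secreted protein with a collagen repeat, the zinc finger gene Zcchc12 (1.01) and Cgref1 (0.94), a secreted calcium-binding growth regulator. The groups did not overlap for any of the 15 genes of largest rise, whose changes ran from 0.94 to 2.13, nor for the 15 of largest fall, from -0.61 to -0.81, which the rule for naming them required.

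Among falling genes Rbm3, a cold-inducible RNA-binding protein, read 11.97, 11.86, 11.92, 11.98 and 11.73 in low and 10.83, 11.47, 11.35, 10.62 and 11.26 in high glucose mice. The change was -0.78 ± 0.12 (adjusted p = 0.000449, limma), with -0.14 on a second probe. Dbp, a clock-controlled transcription factor, fell by 0.67. Rab37, a GTPase of secretory vesicles, fell by 0.77, the palmitoyltransferase gene Zdhhc2 by 0.69, and Fkbp1b, which stabilises calcium release channels, by 0.66. Trpm2, a cation channel of beta cells gated by ADP-ribose, fell by 0.61, and the sulfotransferase gene Sult1c2 by 0.74.

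Cryl1, a dehydrogenase of sugar acids, fell by 0.76 and T2, a gene of the mouse T region, by 0.68. A second Cryl1 probe showed -0.20 and did not pass. For Tsr3, of ribosome maturation, 1 probe fell by 0.81 and another showed 0.17. For Uap1l1, related to the enzyme that makes UDP-N-acetylglucosamine, the probes gave -0.68 and -0.04, and for the GTPase gene Rab43 -0.62 and -0.00. Tmsb15l, of the thymosin family, changed by -0.57 with all mice (adjusted p = 0.225, limma) and by -0.86 without the library labelled B6 low glucose 4 (adjusted p = 0.0143, limma).

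The array pair that carried B6 low glucose 1 beside B6 high glucose 5 gave a ratio within the same array, 1 mouse against 1, in both dye orientations. It was set beside calls made from the other 8 B6 mice, which share no mouse with it. Of 1202 probes that rose in those, 95.2% had a positive ratio on these arrays, against 48.7% of all probes. Of 1008 that fell, 78.4% had a negative ratio, against 51.3%. The median was 0.25 on the arrays and 0.29 in the other mice for the probes that rose, and -0.14 and -0.26 for those that fell. When that of BLKS position was dropped from the other mice the shares were 97% and 82.2%.

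Each of the 19 probes past 2-fold in the other mice had the same sign within the arrays. Across all probes the correlation was 0.515, and across those called 0.812. Probes are not independent and share the 2 mice. By gene, the ratio was 1.39 for Txnip, 1.72 for Slc5a10 and 1.57 for Fkbp11. It was -0.77 for Ucn3, -0.75 for Gad1 and -0.35 for Mlxipl.

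Of the chaperones 27 of 30 had a positive ratio, with a median of 0.52, and of the translocation genes 22 of 25, with a median of 0.40. For glycolysis these were 14 of 19 and 0.43, and for beta cell identity genes 21 of 27 were negative with a median of -0.17. Stromal markers differed, with a median of 0.05 within the arrays and 0.42 in the other mice. Acute phase genes went the other way, with 0.59 and 0.15. With 1 mouse a side, no test of these differences was made.

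**Figure D3:**
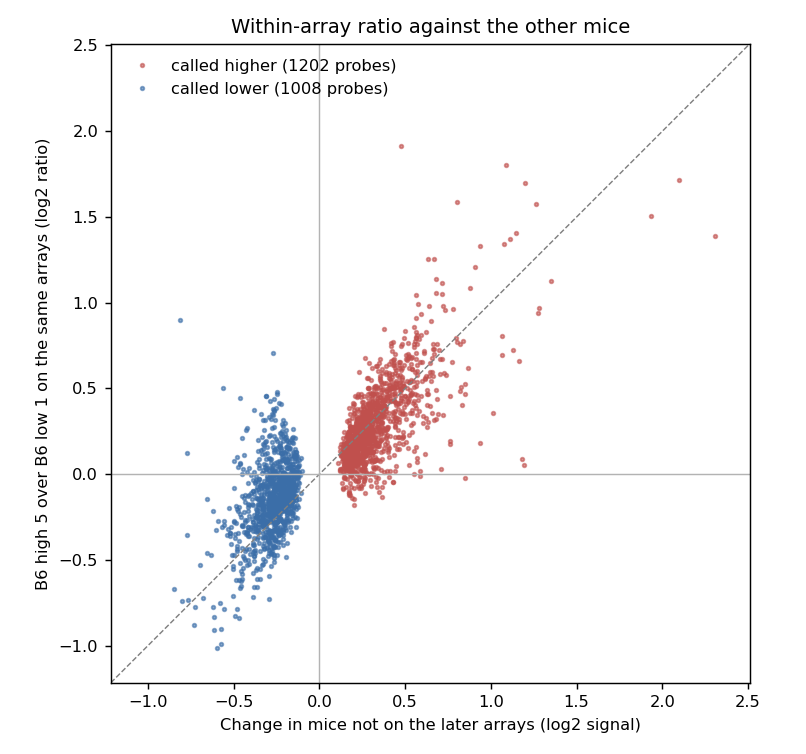
Log2 ratio of B6 high glucose 5 to B6 low glucose 1 on their shared arrays (vertical axis) against the change in the other 8 B6 mice (horizontal axis), 1 point for each of the 1202 probes called higher (red) and 1008 called lower (blue) in those mice, with a dashed line of equality. Most red points lie above 0 (95.2%) and most blue points below it (78.4%).

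The same comparison in BLKS islets moved most of these probes the same way. Of the probes that rose in B6 mice 96.7% were positive in BLKS mice, where 48.6% of all probes were, and 1002 rose there too. Of those that fell 97.7% were negative, and 680 fell in BLKS too. Counted once per gene by the brightest probe, 1178 of all 16000 genes rose in BLKS and 1049 fell. All mice were kept in these counts, with the 2 libraries whose profiles went against their labels. The counts were not made without them. The median change of the probes that rose in B6 was 0.27 in B6 and 0.24 in BLKS, and that of those that fell -0.24 and -0.20. BLKS mice shared arrays with the B6 mice of the same glucose concentration, so these 2 comparisons are not independent in array.

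The difference in response itself passed for 12 probes, 0.0409% of those tested, in limma's interaction term, with 1295 at an unadjusted p below 0.05. Slc5a10 rose by 2.03 in B6 and by 0.49 in BLKS, a difference of -1.54 ± 0.15 (adjusted p = 0.000182, limma). Klf10 rose by 1.06 in B6 and 0.35 in BLKS mice (difference -0.71 ± 0.12, adjusted p = 0.0368, limma).

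Mrpl50, of the mitochondrial ribosome, rose by 0.61 in B6 mice and showed 0.11 in BLKS mice, and Meox1, a homeobox gene, rose by 0.53 and showed -0.07. Meltf, an iron-binding membrane protein, changed by 0.07 in B6 mice, which did not pass, and fell by 0.89 in BLKS mice. A smaller rise in B6 than in BLKS mice was found for both probes of the organic anion transporter gene Slco1a5 (differences 0.36 and 0.46) and for Smpd1, the acid sphingomyelinase (0.28).

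These calls depended on the 2 libraries whose profiles went against their labels. Without the library labelled B6 low glucose 4 alone 3 probes passed, among them those of Slc5a10 and Meltf, and Klf10 was at an adjusted p of 0.0520 in limma. Without both that library and the BLKS low glucose library of B6 position, 17 probes passed, with Slc5a10 at -1.44 and Meltf at -0.93, while Klf10 (adjusted p = 0.0564, limma), both Slco1a5 probes (0.0601 and 0.0616), Smpd1 (0.0746) and a probe without a gene symbol, TC1043667 (0.0601), did not pass. For Txnip the difference was -0.39 ± 0.37 and did not pass.

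**Figure D4:**
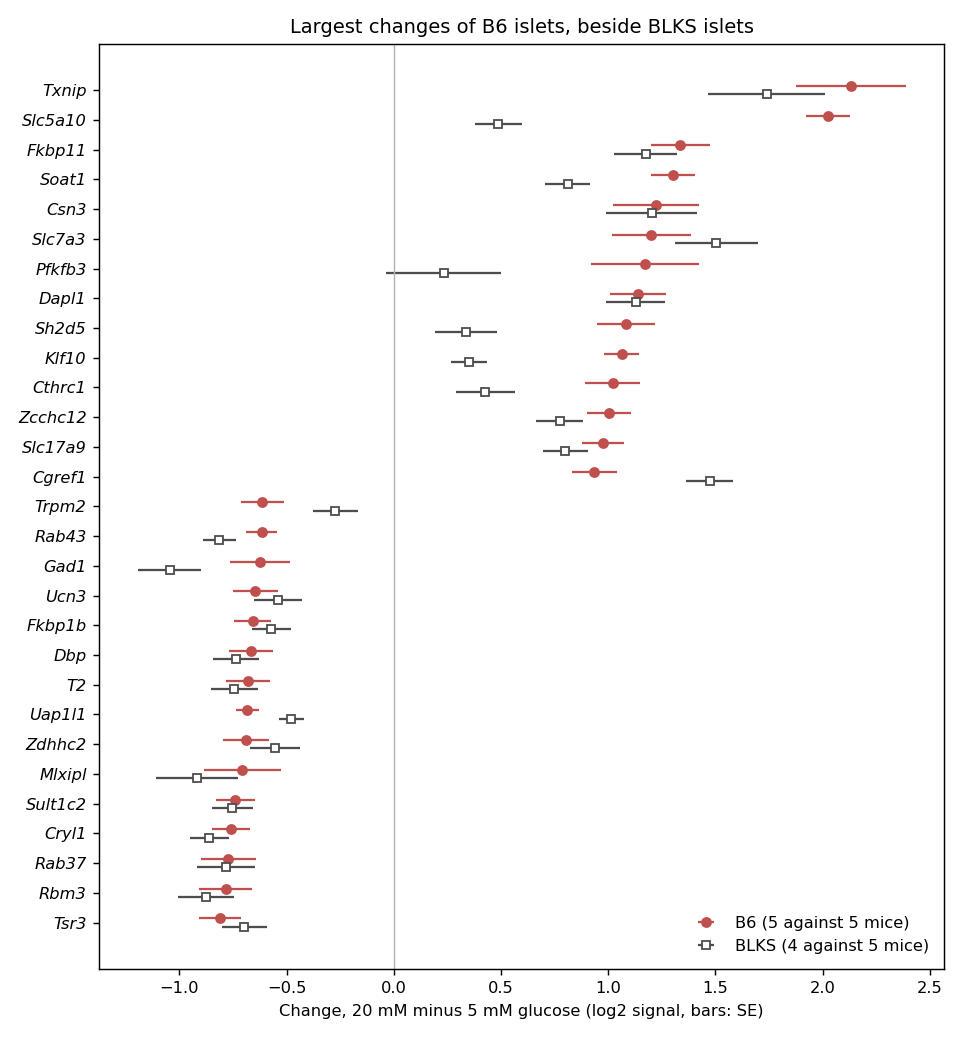
Change in log2 intensity from low to high glucose (horizontal axis) for 14 of the genes of largest rise and the 15 of largest fall in B6 mice, as filled circles for B6 mice and open squares for BLKS mice, with bars for the SE. Every pair of points lies on the same side of 0, and Slc5a10 has the widest gap, at 2.03 in B6 against 0.49 in BLKS mice.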

How the data were processed

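The 20 Agilent arrays carried islet RNA of 19 mice in 2 dyes. Members and gene lists were chosen with earlier results of these data known, so no list is independent evidence. The deposited scanner files hold a processed intensity per spot and dye, which per the file headers was dye-corrected without background subtraction (software version 9.5.3.1 there, Agilent Feature Extraction 8.1 in the submitters' processing notes). The authors also deposited a log2 table, whose columns correlated with their own arrays at 0.999 or more. Its medians ran from 6.23 to 6.53, and how it was scaled between arrays stays unknown.

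Control spots were left out, and the log2 intensity was scaled between arrays with Aquantile (limma 3.58.1, R 4.3.3 and version 1.17.8 of data.table). This evens the average of both dyes between arrays and keeps the ratio of the dyes within an array. Spots the software marked as outliers were then left out, spots of a probe were averaged, and the channels of a mouse were averaged. The fit held all 4 groups of strain and glucose, with eBayes and Benjamini-Hochberg adjustment over all probes. It was tested on simulated data, with values drawn independently for each mouse. Those data held no correlation within array pairs and no library of the other strain's profile, so the fit was not tested under these conditions. A probe was kept where it was well above background in all channels of at least 4 mice. Cy3 flagged nearly all spots as above background (between 39117 and 41534 of 41534), so Cy5 (between 25573 and 30121) set this filter. Between 10 and 26 spots per channel were saturated. The number of arrays limits the precision. Array names were matched to RefSeq (GRCm38.p6) by accession, symbol or synonym for 24087 of the tested probes (82.1%).

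The genes named are, by rule, the 15 of largest rise and fall among probes called with and without B6 low glucose 4 whose groups did not overlap, up to 4 called genes of each list (the 2 brightest where none was called), 8 genes the study names for glucose, the 5 largest differences between strains, and the 5 that moved most without that library. The labels name separate mice, and each mouse counts once in the fit, with a spread per probe shared by the 4 groups. Mice on the same pair of arrays were correlated at 0.56, or 0.59 with the later arrays of B6 low glucose 1. The main fit takes the mice as independent, so its p-values hold array spread as well as spread between mice. Alternatives were background correction, scaling, filters, single dyes, the deposited table, left-out mice, and replicate number or array pair as a block. Columns that belong to no sample numbered 0. Results for some genes are not reported here.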

Additional observations from a re-analysis of the deposited data

Results flagged for a closer look

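In the groups of 5, 246 were checked for a mouse whose gap to its nearest neighbour is large against the range of its group, and 23 were past the 95% limit (9.35%). Chance gives about 1 in 20, but Spp1, Lcn2, Phgdh, Nupr1 and Tmsb15l were named because they moved most without the library labelled B6 low glucose 4, so the share is not read against it. Of the 17 in low glucose, 14 were the library labelled B6 low glucose 4. It was highest for Spp1 (14.03), Lcn2 (8.71), S100a9 (6.43), Phgdh (10.94), Nupr1 (11.56), Nr4a1 (9.84), Asns (13.32), Derl1 (10.83), Krt18 (13.22) and both probes of Gad1 (10.47 and 10.14). It was lowest for Soat1 (7.23), Idh2 (8.83) and Tmsb15l (11.60). In the other low glucose mice, B6 low glucose 5 was lowest for Rpn1 (13.53) and Tmed3 (13.84), and B6 low glucose 1 was highest for Lum (6.71).

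In high glucose, mouse 4 was lowest for Zcchc12 (8.93) and Srxn1 (10.40) and highest for Hadh (12.43) and Pcsk1 (12.75). Mouse 5 was highest for Hars (8.64) and Gpx2 (11.63).

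The response to glucose differed between BLKS and B6 mice, by limma's interaction term, for 12 probes, of which 10 are given. The BLKS change minus the B6 change was -1.54 for Slc5a10, -0.96 for Meltf, -0.71 for Klf10, -0.60 for Meox1, -0.50 for Mrpl50, -0.32 for Hnrnpa1, 0.28 for Smpd1, 0.36 and 0.46 for Slco1a5 and 0.42 for a probe the array names TC1043667, without a gene symbol here.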

How the results depend on the processing

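The count of probes that passed in the B6 response was 2796 with all mice and 2995 without the library labelled B6 low glucose 4. It was 1604 (558 rising) and 1812 without scaling between arrays, 1212 (270 rising) and 1536 in the deposited table, and 5825 (2910 rising, 2915 falling) and 6303 in the methods' linear model, which counts each dye of a mouse as a sample. With Cy5 alone 759 probes fell. The replicate block also moved the counts by more than 1.5 times, as did leaving out B6 low glucose 5 where B6 low glucose 4 was already out. Other settings stayed within 1.5 times of the counts. Leaving out each mouse in turn gave 1924 to 2995 probes, 1111 to 1665 rising and 813 to 1330 falling. Where B6 low glucose 4 was already out, the range was 1966 to 2932, and the lowest count was that without B6 low glucose 5. The replicate numbers do not pair the mice (correlations of same-numbered deviations from -0.230 to 0.317, best with their own number for 1 of 5). With the replicate number as a block, in a fit of the 10 B6 mice alone, 1349 probes passed (798 rising, 551 falling). Those 10 mice without the block gave 2239 (1321 rising, 918 falling). Treating the pair of arrays as random, 2624 passed, and 3469 with the later arrays of B6 low glucose 1.

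The interaction between strain and glucose passed for 12 probes, and for 3 without B6 low glucose 4. The shares of the within-array check without B6 low glucose 4 were 97% and 82.2%. Of the values for named genes, 2887 kept their direction and side of the threshold, 282 lost the threshold, 17 gained it and 10 changed sign. Those were Fcer1g and Meltf. Fcer1g, a leukocyte marker at 0.02, had a change of -0.0266 without scaling, -0.0786 in the deposited table, -0.0276 with Cy5 alone, -0.00132 without both doubtful libraries and -0.00807 with the array pair as a block and the later arrays of B6 low glucose 1, and from -0.0211 to 0.0793 when single mice were left out. Meltf, at 0.07, had a change of -0.0341 in the deposited table. The cause of these differences was not tested. Saturated hormone probes and probes near background give bounds only.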
